A study of Mus musculus with 10 samples.

Results

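Cytotoxic T lymphocytes (CTLs) of the mouse line 2/20 were compared 4 h after activation with AH1 peptide and at rest, in 2 libraries of each group, 4 of the 10 libraries of the series. The groups were taken as the sample labels give them, and the comparison is described here across all genes with enough counts, leaving aside the cytokine and chemokine genes, the genes for making ribosomes and the amino acid transporters. AH1 is a peptide of an endogenous murine leukemia virus envelope protein that these cells recognize on a class I MHC molecule, so the comparison asks how the transcripts of a resting killer cell differ 4 h after it is given antigen without tumor cells. The other 6 libraries came from cells 24 h after peptide and from co-culture with 4T1 mammary carcinoma cells for 4 h or 24 h.

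Both groups carried the wild-type genotype and came from one line fed weekly with irradiated BALB/c spleen cells, 1 µg/mL of AH1 peptide and 10 units/mL of IL-2. The resting group had no treatment, and the activated group received AH1 peptide at 1 µg/mL for 4 h. Before RNA was taken, cells were picked with magnetic beads bearing an antibody to CD45, a protein that B cells and myeloid cells also carry. The labels do not state whether spleen cells were present while the peptide acted. Nor is it said whether the libraries of a group came from separate cultures, so the p-values measure only the spread between these libraries, which may be technical. A single line in its own culture medium limits what the groups stand for.

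When a T cell receptor meets its peptide, kinases next to the receptor open calcium and MAP kinase pathways and free the factors NFAT, AP-1 and NF-κB to enter the nucleus or become active. Genes that need no new protein for their transcription are switched on first, among them regulators that limit the signal. Within hours the cell also leaves quiescence, a state kept by factors that hold back growth, and builds the machinery to make protein and to divide.

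The 4 libraries held 14104658 to 19095594 counts, and Ifng alone took 9.14% and 7.48% of the counts with peptide. Levels are CPM values, made from the counts with the library sizes that TMM normalization gave, with both libraries of a group named (n = 2), and each change carries its SE. The words rose and fell are kept for genes with a Benjamini-Hochberg adjusted p under 0.05 in edgeR's quasi-likelihood test, over 14729 genes. Both resting libraries had the defining CD8 T cell transcripts: Cd3e lay at 465 and 415 CPM, Cd8a at 148 and 143 CPM and Cd8b1 at 269 and 309.7 CPM. Other T cell genes were nearly absent at rest, with Cd5 at 0 and 0.275 CPM and Cd2 at 1.85 and 1.37 CPM.

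RNA of other cells moved with the groups. The summed level of the B cell markers was 9.55 to 12.3 CPM at rest and 954 to 1031 CPM with peptide, and all 18 tested members rose, beside 28.8% of all genes. At rest 6 of these 18 had no count, Cd79b and Ms4a1 among them. Myeloid markers summed to 52.8 to 59.8 CPM at rest and 202 to 261 CPM with peptide (9 rose and 0 fell of 15 tested), plasma cell markers to 2.61 to 3.53 CPM and 14.7 to 22.1 CPM, and dendritic cell markers to 144 to 148 CPM and 391 to 425 CPM. T cell receptor β segments other than Trbv31 and Trbv2 had 0 counts at rest and took 7.92% and 7.11% of such counts with peptide. The part of other cells, T cells among them, in the rises below was not tested. In bulk RNA fewer cells of a type and less RNA per cell cannot be told apart. The plot of marker sums shows how far each class moved.

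**Figure D1:**
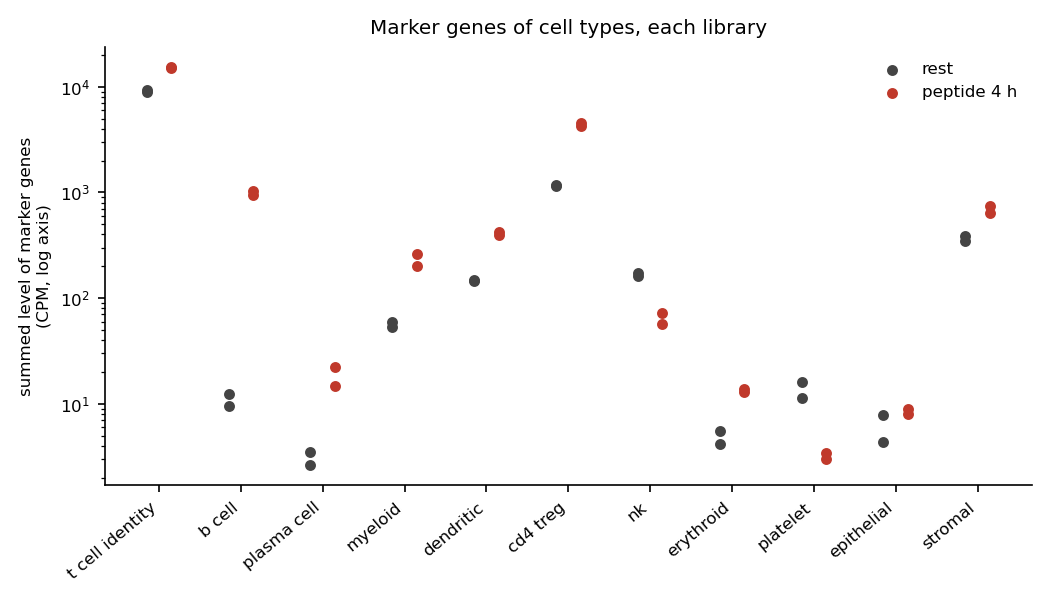
Summed level of the marker genes of each cell type (CPM, log axis) in the 2 resting libraries (grey) and the 2 libraries with peptide for 4 h (red), 1 point per library. The B cell sum lay at 9.55 to 12.3 CPM at rest and 954 to 1031 CPM with peptide, and the T cell sum at 8956 to 9314 CPM and 14948 to 15405 CPM.

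Most measured genes changed. With peptide 4244 genes rose (28.8%) and 4518 fell (30.7%) of 14729 tested, and 2110 (14.3%) and 2452 (16.6%) passed a test against a 2-fold change. Of the 8762 genes called, 8743 had libraries that did not overlap between the groups, beside 77.2% of all genes tested. The median log2 fold change of all genes was -0.04, 25% of the genes lay below -1.26 and 25% above 0.96, and 5% lay below -3.72 and 5% above 3.53. A change of 1.5-fold or more in either direction lay outside the 95% interval for 1268 genes (8.61%). These figures are the background for every count below.

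The split between rises and falls depended on the scaling. Of all calls 48.4% were higher with TMM scaling and 50.6% with the median-of-ratios scaling. With library totals alone the median of all genes moved to -0.54 and the higher share to 31.0%. With libraries set equal on 17 T cell identity genes, whose own median change was 0.96, the median moved to -0.91 and the higher share to 20.6%. Where a scaling turned a list's balance of rises and falls or its median, or moved the larger count by over 1.5 times, its counts are given too.

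Among long intergenic and antisense noncoding RNAs a smaller share was called than among protein-coding genes, and falls outnumbered rises. The classes were not matched for level, and calls were fewer at low levels. From 0.1 to 1 CPM at rest 402 rose and 214 fell of 2150, and from 10 to 100 CPM 2155 rose and 2298 fell of 6084. The part of level in the smaller share was not tested. Of 407 long intergenic noncoding RNAs 43 rose and 120 fell (10.6% and 29.5%), with a median log2 fold change of -0.77. Of 292 antisense RNAs, whose reads depend on how strand was used in counting, 29 rose and 63 fell, with a median of -0.52, whereas 13035 protein-coding genes split into 4012 risen (30.8%) and 4161 fallen (31.9%), with a median of -0.02. Pseudogenes, which share reads with their parent genes, showed no such excess, as 86 rose and 88 fell of 664, with a median of 0.13. Genes near silence at rest could be seen to move only upward. Below 0.1 CPM at rest 372 rose and 0 fell of 1180, and from 100 CPM upward 670 rose and 858 fell of 2020. The plot of change against level shows the named genes on both sides.

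**Figure D2:**
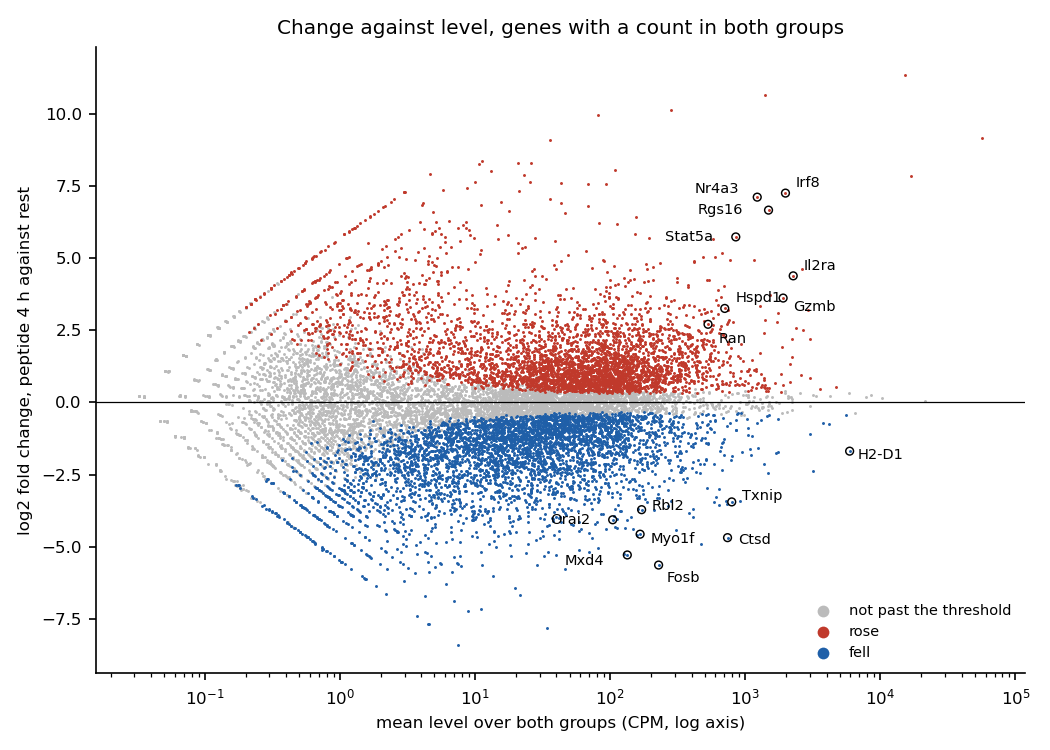
Log2 fold change, peptide 4 h against rest, against the mean level over both groups (CPM, log axis) for the 13535 tested genes with a count in both groups. Red genes rose, blue genes fell and grey genes did not pass the threshold, and circles mark named genes from Irf8 at 7.26 to Fosb at -5.64.

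Transcription factors gave some of the steepest rises among genes present at rest, and the nuclear receptor gene Nr4a3 (ENSMUSG00000028341, chromosome 4, plus strand, 48045153 to 48086447, mm10) led the immediate early factors. Nr4a3 encodes an orphan nuclear receptor used as a sign of T cell receptor signaling. It stood at 17.5 and 17.4 CPM at rest and 2438 and 2427 CPM with peptide. Both libraries with peptide lay far above both resting libraries and close to each other, and Nr4a3 rose by 7.12 ± 0.19 log2 units (adjusted p = 6.8e-11). Its relative Nr4a1 stood at 12.4 and 11.5 CPM at rest and 159.8 and 187 CPM with peptide and rose by 3.86 ± 0.19 log2 units. Of the immediate early list 17 rose and 7 fell of 29 tested, with a median log2 fold change of 0.71, against 12 risen and 10 fallen with T cell identity scaling. Ier3, a survival gene of early responses, rose by 4.09 ± 0.17 log2 units (adjusted p = 1.1e-09), and Egr2, a zinc finger factor downstream of NFAT, rose by 2.58 ± 0.26 log2 units.

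Fos and Fosb, which pair with JUN proteins to form AP-1, fell. Fosb (ENSMUSG00000003545, chromosome 7, minus strand, 19302721 to 19310045) stood at 476 and 418 CPM at rest and 7.0 and 11 CPM with peptide. Both resting libraries lay far above both libraries with peptide. Fosb fell by 5.64 ± 0.32 log2 units (adjusted p = 1.2e-08) and Fos fell by 3.54 ± 0.20 log2 units (adjusted p = 1.2e-08), and Jund fell by 1.19 ± 0.14 log2 units (adjusted p = 6.2e-06). Junb and Jun did not pass the test (Junb, log2 fold change 0.10 ± 0.11, adjusted p = 0.476; Jun, log2 fold change -0.29 ± 0.15, adjusted p = 0.106), and Junb turned to a fall of -0.40 with library totals alone and of -0.77 with T cell identity scaling. Jun fell past the threshold with either of those scalings and without the second library with peptide. No time before 4 h was measured, so an earlier peak of these genes would not be seen.

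The stretch of 250 bases before the start site is shown for 4 transcription and signaling regulators with steep changes, of which 2 rose and 2 fell, so that their letters can be compared. The sequences are RefSeq's for build GRCm38.p6, written 5′ to 3′ on the gene's strand, and RefSeq's starts lie 0 to 211 bases from the gene starts in the deposited table. Capitals mark matches on either strand to the motifs CACGTG (an E-box, bound by MYC and MAX family proteins), TGACGTCA (the cyclic AMP response element, CRE), the short CRE site TGACG contained in it, TGANTCA (AP-1) and GGAAAA (the core of NFAT sites), and to a κB motif and an interferon element, neither of which occurred in these windows. The windows are Nr4a3 at chr4:48045055-48045304, plus strand, Rgs16 at chr1:153740103-153740352, plus strand, Fosb at chr7:19310046-19310295, minus strand and Mxd4 at chr5:34187711-34187960, minus strand.
Nr4a3: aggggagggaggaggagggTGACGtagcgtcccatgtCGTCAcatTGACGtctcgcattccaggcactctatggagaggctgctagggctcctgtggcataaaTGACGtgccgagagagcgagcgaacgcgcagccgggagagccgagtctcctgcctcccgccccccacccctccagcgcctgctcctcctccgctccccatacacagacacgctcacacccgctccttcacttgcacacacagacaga
Rgs16: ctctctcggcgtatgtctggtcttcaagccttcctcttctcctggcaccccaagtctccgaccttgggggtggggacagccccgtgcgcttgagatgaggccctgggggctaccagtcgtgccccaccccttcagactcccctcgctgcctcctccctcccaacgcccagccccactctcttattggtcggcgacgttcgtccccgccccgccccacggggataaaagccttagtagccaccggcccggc
Fosb: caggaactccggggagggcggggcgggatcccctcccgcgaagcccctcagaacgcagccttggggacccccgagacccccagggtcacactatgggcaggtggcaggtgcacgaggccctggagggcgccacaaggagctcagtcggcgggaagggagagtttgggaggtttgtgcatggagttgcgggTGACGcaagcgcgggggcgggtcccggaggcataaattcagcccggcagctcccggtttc
Mxd4: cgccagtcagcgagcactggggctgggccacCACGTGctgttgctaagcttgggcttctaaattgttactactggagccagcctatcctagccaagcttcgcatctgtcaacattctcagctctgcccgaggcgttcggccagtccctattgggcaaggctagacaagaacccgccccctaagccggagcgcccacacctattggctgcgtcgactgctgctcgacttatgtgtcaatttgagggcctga
Nr4a3 held 4 short CRE sites within its window, at 231, 213, 205 and 147 bases before the start. Fosb held 1 at 60 bases before the start, Mxd4 1 E-box at 219 bases before it, and Rgs16 none of the motifs. Of 8107 tested genes with a promoter in the table, 32.0% held the short site in the 300 bases around the start, which was added to the search after the windows had been read.

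Interferon regulatory factors went both ways. Irf8 (ENSMUSG00000041515, chromosome 8, plus strand, 120736358 to 120756694), a factor of lymphocyte and myeloid differentiation, stood at 25.8 and 25.8 CPM at rest and 3812 and 4066 CPM with peptide. The resting libraries matched each other and both libraries with peptide lay far above them, and Irf8 rose by 7.26 ± 0.18 log2 units (adjusted p = 4.3e-11). Irf4, which scales with the strength of the receptor signal, rose by 2.45 ± 0.22 log2 units (adjusted p = 5.5e-07), whereas the transcriptional coregulator Irf2bpl fell by 3.14 ± 0.17 log2 units (adjusted p = 8.5e-09). Of the list 6 rose and 4 fell of 12 tested, with a median log2 fold change of 0.26. Against this stood 4 risen and 4 fallen with library totals alone and 3 risen and 6 fallen with T cell identity scaling. The list also holds genes of IRF2-binding proteins, and Irf2bpl and Irf2bp2 were among its falls. The factors proper that fell were Irf1 (log2 fold change -0.58) and Irf2 (log2 fold change -0.61). B cells and myeloid cells also express Irf8, and the sums of their markers given above rose with it. Their part in its rise was not tested.

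Of the CD8 fate factors 17 rose and 11 fell of 32 tested, with a median log2 fold change of 0.90, against 12 risen and 15 fallen with T cell identity scaling. Zbtb32, a repressor induced in activated lymphocytes, stood at 36.9 and 34.3 CPM at rest and 1266 and 1334 CPM with peptide, with no overlap, and rose by 5.19 ± 0.17 log2 units (adjusted p = 2.4e-10). Tbx21, which encodes the effector factor T-bet, rose by 2.13 ± 0.16 log2 units (adjusted p = 1.1e-07). Bcl11b, a guardian of T cell identity, stood at 273 and 266 CPM at rest and 13.0 and 21.5 CPM with peptide. It was lower in both libraries with peptide and fell by 3.96 ± 0.23 log2 units (adjusted p = 1.3e-08). Rora fell by 2.40 ± 0.15 log2 units and Gata3 fell by 2.27 ± 0.20 log2 units.

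Myc and Max rose, and some antagonists of MYC fell. Myc, the growth regulator, rose by 2.86 ± 0.17 log2 units (adjusted p = 2.1e-08), and Max, which pairs with it, rose by 1.49 ± 0.15 log2 units (adjusted p = 1.4e-06). Mxd4 (ENSMUSG00000037235, chromosome 5, minus strand, 34173887 to 34187720), a MAX partner that represses the genes MYC activates, stood at 260.1 and 262 CPM at rest and 5.97 and 7.30 CPM with peptide. Both resting libraries stood high and both libraries with peptide low, and Mxd4 fell by 5.29 ± 0.18 log2 units (adjusted p = 3.1e-10). Mxi1, of the same class, fell by 1.90 ± 0.19 log2 units (adjusted p = 1.4e-06), whereas the antagonist Mnt rose by 0.80 ± 0.21 log2 units (adjusted p = 0.00477) and Mxd1 did not pass the test (log2 fold change -0.17 ± 0.21, adjusted p = 0.51). Mnt lost its call with library totals alone (0.31) and without the second library with peptide (0.52) and turned to -0.05 with T cell identity scaling, and Mxd1 passed as lower with these scalings (-0.67 and -1.05). Of the whole network 5 rose and 3 fell of 13 tested, with a median log2 fold change of 0.25, against 2 risen and 5 fallen with library totals alone and 2 risen and 7 fallen with T cell identity scaling.

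Genes of T cell receptor signaling went both ways. Of the proximal signaling list 17 rose and 16 fell of 39 tested, with a median log2 fold change of -0.05, against 13 risen and 19 fallen with library totals alone and 7 risen and 22 fallen with T cell identity scaling. The adaptor Lcp2 (SLP-76) rose by 2.49 ± 0.17 log2 units (adjusted p = 6.4e-08), and the kinase Zap70 rose by 2.35 ± 0.17 log2 units (adjusted p = 8.3e-08). Sla, an adaptor that lowers receptor levels, stood at 13.3 and 17.1 CPM at rest and 433 and 360.3 CPM with peptide. It stood well above rest in both libraries and rose by 4.71 ± 0.33 log2 units (adjusted p = 8e-08). The diacylglycerol kinase Dgka, a brake on the pathway, fell by 2.72 ± 0.15 log2 units (adjusted p = 7.7e-09), and the adaptors Grap2 and Dok2 also fell (Grap2, log2 fold change -2.50; Dok2, log2 fold change -1.56).

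Calcium entry genes changed partner by partner. Orai1, the pore of the store-operated calcium channel, stood at 30.1 and 32.8 CPM at rest and 298 and 298 CPM with peptide, and Orai2, another pore subunit that dampens the current in mouse T cells, stood at 201 and 193 CPM at rest and 13.0 and 10.4 CPM with peptide. Each gene's groups stood apart, in opposite directions. Orai1 rose by 3.25 ± 0.15 log2 units (adjusted p = 3e-09) and Orai2 fell by 4.07 ± 0.18 log2 units (adjusted p = 2.1e-09). Stim1, the calcium sensor that opens the channel, fell by 2.53 ± 0.20 log2 units, and Atp2a2, the pump that refills the store, rose by 2.06 ± 0.16 log2 units. Among the NFAT factors Nfatc1 rose by 2.45 ± 0.20 log2 units (adjusted p = 3.3e-07), Nfat5 rose by 2.79 ± 0.13 log2 units and Nfatc3 fell by 2.86 ± 0.17 log2 units (adjusted p = 1.9e-08). The calcineurin subunit Ppp3cc fell by 3.33 ± 0.16 log2 units (adjusted p = 3.8e-09). Of the calcium and NFAT list 8 rose and 13 fell of 26 tested, with a median log2 fold change of -0.35.

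Feedback genes of the MAP kinase and NF-κB pathways were split as well. Among the MAP kinase phosphatases Dusp4 rose by 1.61 ± 0.15 log2 units (adjusted p = 1.1e-06) while Dusp7 fell by 4.46 ± 0.23 log2 units (adjusted p = 6.2e-09), Dusp10 fell by 2.04 ± 0.17 log2 units and Dusp1 fell by 1.8 ± 0.14 log2 units. Spred1, an inhibitor of RAF activation, rose by 3.50 ± 0.16 log2 units (adjusted p = 3e-09), and Spry1 rose more steeply (log2 fold change 5.01). Of the list 6 rose and 10 fell of 23 tested, with a median log2 fold change of -0.18. Nfkb1, the p105 precursor of NF-κB p50, stood at 359 and 368 CPM at rest and 2976 and 3311 CPM with peptide. Both libraries with peptide were high, and Nfkb1 rose by 3.11 ± 0.15 log2 units (adjusted p = 4.4e-09). Among genes of nuclear IκB proteins, which modulate NF-κB at its targets, Nfkbid rose by 4.85 ± 0.21 log2 units (adjusted p = 1.8e-09) and Nfkbiz rose by 3.04 ± 0.15 log2 units (adjusted p = 3.7e-09). Bcl3 did not pass the test (log2 fold change 0.64 ± 0.28, adjusted p = 0.0639). It passed as higher with the median-of-ratios scaling (0.70), no low-count filter (0.61), the 4 libraries alone (0.66) and DESeq2 (0.71). Its log2 fold change was 0.93 without the first resting library and 0.97 without the first library with peptide. The ubiquitin ligase Birc2 and the deubiquitinase Cyld fell (Birc2, log2 fold change -1.99; Cyld, log2 fold change -1.56), and of the NF-κB list 15 rose and 7 fell of 30 tested, with a median log2 fold change of 0.51, against 10 risen and 11 fallen with library totals alone and 7 risen and 14 fallen with T cell identity scaling.

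The regulators of G protein signaling Rgs16 and Rgs1 rose steeply. Rgs16 (ENSMUSG00000026475, chromosome 1, plus strand, 153740349 to 153745468) and Rgs1 speed the shutting off of chemokine receptor signals. Rgs16 stood at 28.7 and 29.3 CPM at rest and 2719 and 3163 CPM with peptide. Rgs1 stood at 579 and 551 CPM at rest and 5963 and 4496 CPM with peptide. No library with peptide overlapped a resting one in either gene. Rgs16 rose by 6.67 ± 0.21 log2 units (adjusted p = 2e-10) and Rgs1 rose by 3.21 ± 0.18 log2 units (adjusted p = 9.7e-09), and the G protein subunit Gnaq rose by 2.33 ± 0.15 log2 units. The oxysterol receptor Gpr183, the nucleotide sugar receptor P2ry14 and Rgs14 fell (Gpr183, log2 fold change -2.28; P2ry14, log2 fold change -2.89; Rgs14, log2 fold change -2.26). Of the list 12 rose and 13 fell of 30 tested, with a median log2 fold change of -0.42.

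Several genes downstream of the IL-2 receptor rose, feedback genes among them. Stat5a (ENSMUSG00000004043, chromosome 11, plus strand, 100859351 to 100885169), a factor that IL-2 activates, stood at 31.8 and 30.8 CPM at rest and 1477 and 1859.9 CPM with peptide. It was far higher in both libraries with peptide and rose by 5.74 ± 0.20 log2 units (adjusted p = 4e-10). Cish, a suppressor that STAT5 induces, rose by 3.90 ± 0.18 log2 units (adjusted p = 3.1e-09), and Pim3, a survival kinase gene, rose by 3.25 ± 0.15 log2 units (adjusted p = 2.1e-09). Pias3, an inhibitor of STAT3, stood at 69.6 and 63.8 CPM at rest and 1.92 and 5.11 CPM with peptide, low in both libraries with peptide, and fell by 4.24 ± 0.35 log2 units (adjusted p = 2.8e-07). Stat4, which transmits IL-12 signals, fell by 0.85 ± 0.18 log2 units and Jak1 fell by 0.71 ± 0.13 log2 units. Of the JAK, STAT and SOCS list 15 rose and 6 fell of 25 tested, with a median log2 fold change of 1.39.

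Cytokine receptors were split. Il2ra, the high-affinity chain of the IL-2 receptor, stood at 203 and 207 CPM at rest and 4172 and 4465 CPM with peptide, high in both libraries with peptide. Il21r, the IL-21 receptor, rose by 2.15 ± 0.17 log2 units (adjusted p = 1.9e-07). Ifngr1, the ligand-binding chain for interferon-γ, stood at 519 and 509.8 CPM at rest and 50.9 and 44.6 CPM with peptide, with both resting libraries far above, and fell by 3.43 ± 0.14 log2 units (adjusted p = 1.1e-09). Tgfbr2, the TGF-β receptor, fell by 3.03 ± 0.18 log2 units (adjusted p = 1.4e-08), and Il27ra fell by 3.32 ± 0.15 log2 units (adjusted p = 2e-09). Of the cytokine receptors 14 rose and 10 fell of 28 tested, with a median log2 fold change of 0.39, against 9 risen and 10 fallen with library totals alone and 7 risen and 13 fallen with T cell identity scaling.

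Of the TNF receptor family 11 rose and 1 fell of 17 tested, with a median log2 fold change of 1.5. Tnfrsf9 (4-1BB), a costimulator of CD8 T cells, stood at 65.0 and 79.2 CPM at rest and 2447 and 2008 CPM with peptide, and Tnfrsf1b, the second TNF receptor, rose by 1.70 ± 0.20 log2 units (adjusted p = 7.4e-06). The 1 member that fell was Tnfrsf18 (GITR), which fell by 2.13 ± 0.22 log2 units (adjusted p = 2.4e-06). Cd40, a receptor of antigen-presenting cells, stood at 1.18 and 1.03 CPM at rest and 43.9 and 36.7 CPM with peptide, with the B cell markers given above moving the same way. Of the list of inhibitory receptors 11 rose and 3 fell of 17 tested, with a median log2 fold change of 2.81. Those that fell were Ctla4 (log2 fold change -4.91), Cd96 (log2 fold change -1.43) and Entpd1 (log2 fold change -0.62). Its rises included Cd5 (log2 fold change 4.77), nearly absent at rest, and Cd6, without a count there. The part of other cells in the list's rises was not tested. This list also holds the ligands Cd274 (PD-L1) and Cd200 and the ectoenzymes Nt5e and Entpd1, and Cd274 itself was its median member. Cd274 stood at 122 and 123 CPM at rest and 913 and 813 CPM with peptide. Both libraries with peptide lay above rest, and Cd274 rose by 2.81 ± 0.14 log2 units (adjusted p = 4.1e-09).

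More adhesion and homing genes fell than rose. Itgb7, an integrin chain for gut homing, stood at 1378 and 1336 CPM at rest and 109 and 125 CPM with peptide. Itga4, which pairs with it, stood at 746 and 693 CPM at rest and 53.1 and 48.6 CPM with peptide. Both chains were low in both libraries with peptide, and Itgb7 fell by 3.53 ± 0.16 log2 units (adjusted p = 2.7e-09) and Itga4 fell by 3.82 ± 0.18 log2 units (adjusted p = 3.2e-09). Spn (CD43), a long surface sialoglycoprotein, fell by 2.30 ± 0.16 log2 units (adjusted p = 7.8e-08), while the hyaluronan receptor Cd44 rose by 2.17 ± 0.16 log2 units (adjusted p = 9.9e-08). Of the list 9 rose and 16 fell of 32 tested, with a median log2 fold change of -0.76. Cxcr5, a receptor of cells that enter B cell follicles, stood at 0.672 and 0.412 CPM at rest and 23 and 19.9 CPM with peptide, and spleen B cells carry it. More NK lectin receptors fell than rose: 5 rose and 8 fell of 15 tested, with a median log2 fold change of -1.15, with Klre1 (log2 fold change -2.78) and Klri2 (log2 fold change -2.0) among those that fell.

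Granule genes moved in both directions. Srgn, the proteoglycan core that packs granzymes, stood at 1045 and 1103 CPM at rest and 5716 and 4186 CPM with peptide, and Gzmk, a granzyme of memory-like cells, at 1274 and 1349 CPM at rest and 134 and 109 CPM with peptide. The libraries with peptide were above rest for Srgn and below it for Gzmk. Srgn rose by 2.20 ± 0.17 log2 units (adjusted p = 1.3e-07), the granule membrane gene Nkg7 rose by 1.71 ± 0.12 log2 units and Fasl rose by 1.82 ± 0.14 log2 units. Gzmk fell by 3.43 ± 0.18 log2 units (adjusted p = 6.7e-09), Lyst, which controls the size of lytic granules, fell by 2.74 ± 0.19 log2 units, and the death ligand Tnfsf10 (TRAIL) fell by 2.30 ± 0.16 log2 units. Of the granule list 11 rose and 9 fell of 27 tested, with a median log2 fold change of 0.43, against 11 risen and 10 fallen with library totals alone and 8 risen and 11 fallen with T cell identity scaling.

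Bcl2l1 and Cflar, which protect cells from death, rose. Bcl2l1 (BCL-XL), which protects mitochondria, stood at 12.8 and 9.34 CPM at rest and 242 and 293 CPM with peptide. Both libraries with peptide were far above rest, and Bcl2l1 rose by 4.58 ± 0.21 log2 units (adjusted p = 2.5e-09). Cflar, which blocks caspase 8, rose by 2.64 ± 0.15 log2 units (adjusted p = 1.5e-08). The killers Bbc3 (PUMA) and Bad and the apoptosome gene Apaf1 fell (Bbc3, log2 fold change -2.24; Bad, log2 fold change -3.09; Apaf1, log2 fold change -2.37), whereas other killers rose: Bid rose by 3.21 ± 0.18 log2 units, Bmf rose by 1.63 ± 0.58 log2 units, Bcl2l11 (BIM) rose by 1.28 ± 0.23 log2 units, Bak1 rose by 0.99 ± 0.16 log2 units and Bax rose by 0.51 ± 0.14 log2 units. Of these Bmf, Bcl2l11 and Bak1 lost their calls with T cell identity scaling and Bax turned to -0.37 there. The calls of Bmf and Bax were also lost with library totals alone (1.13 and 0.01) and without the first resting library (0.87 and 0.37), and that of Bmf without either library with peptide (1.60 and 1.66). Of the list 16 rose and 10 fell of 31 tested, with a median log2 fold change of 0.44, against 12 risen and 14 fallen with library totals alone and 7 risen and 14 fallen with T cell identity scaling. Stress and p53 target genes had 8 risen and 6 fallen of 23 tested, with a median log2 fold change of 0.10, against 8 risen and 9 fallen with library totals alone and 7 risen and 10 fallen with T cell identity scaling. Gadd45g, a stress sensor that also feeds the p38 pathway in T cells, rose by 5.06 ± 0.18 log2 units (adjusted p = 5.6e-10), and Cdkn1a (p21), which halts the cycle, rose by 3.66 ± 0.19 log2 units (adjusted p = 6.8e-09). Trp53inp1, a p53 partner, fell by 3.05 ± 0.15 log2 units (adjusted p = 4.3e-09).

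**Figure D3:**
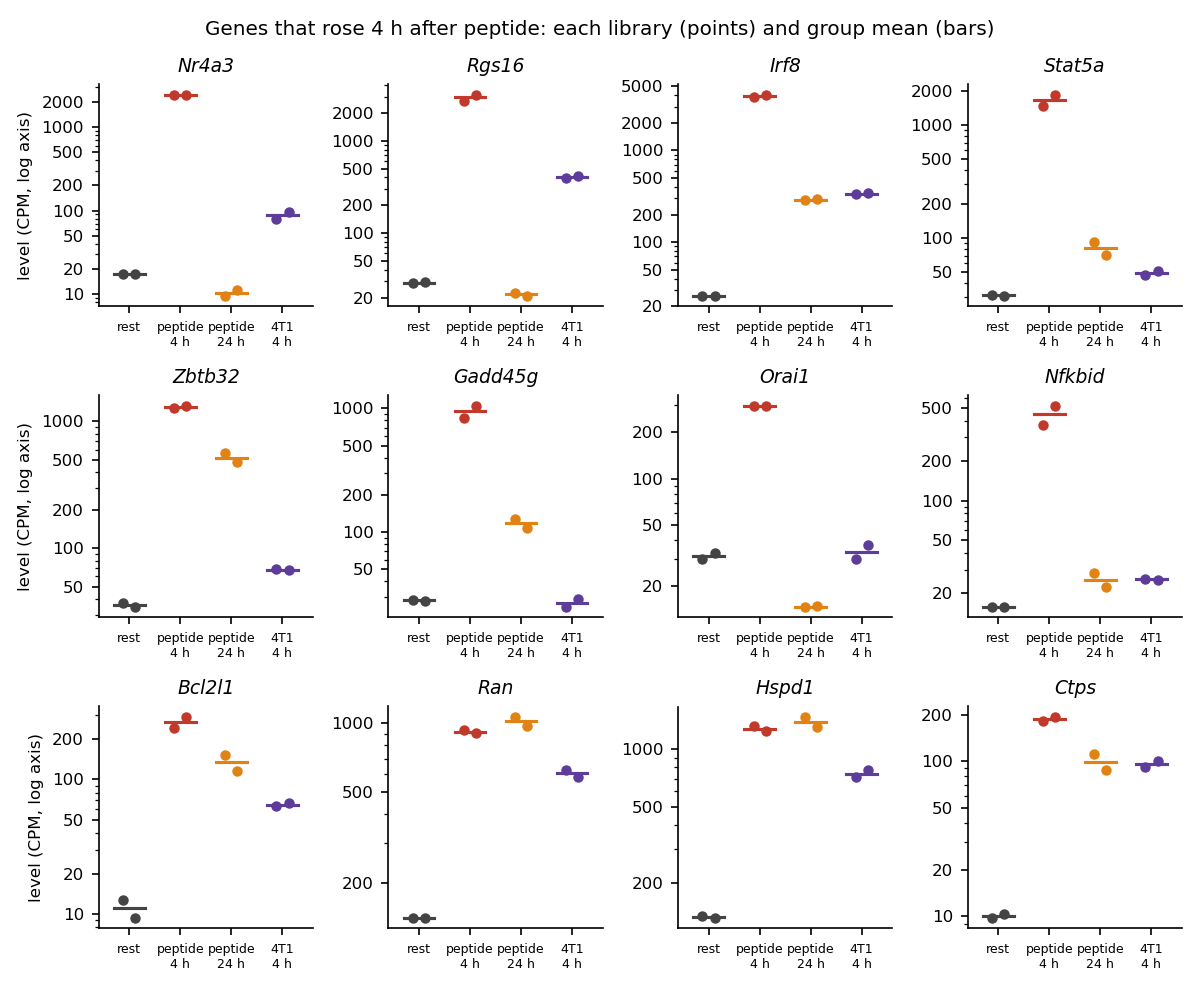
Level (CPM, log axis) of 12 genes that rose with peptide at 4 h, in each library at rest, with peptide for 4 h or 24 h, and in 4T1 co-culture for 4 h (points), with group means (bars, n = 2). Nr4a3, Rgs16 and Orai1 were below their resting mean at 24 h, whereas Ran and Hspd1 stayed near their 4 h level.

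More genes of nuclear transport and splicing rose than fell. Of the nuclear transport genes 44 rose and 3 fell of 51 tested, with a median log2 fold change of 1.07, against 29 risen and 7 fallen with library totals alone and 19 risen and 8 fallen with T cell identity scaling. Ran (ENSMUSG00000029430, chromosome 5, plus strand, 129020069 to 129024323), the GTPase that gives transport its direction, stood at 141 and 140.3 CPM at rest and 932 and 904 CPM with peptide, with both libraries with peptide several-fold above rest. Ran rose by 2.71 ± 0.13 log2 units (adjusted p = 3.2e-09), the importin Ipo4 rose by 4.19 ± 0.22 log2 units (adjusted p = 6.3e-09) and Ipo5 rose by 2.52 ± 0.13 log2 units. The pore component Nup210 was among the 3 exceptions and fell by 2.10 ± 0.23 log2 units (adjusted p = 3.7e-06). Of the spliceosome genes 37 rose and 3 fell of 45 tested, with a median log2 fold change of 1.39, against 22 risen and 7 fallen with T cell identity scaling, with the splicing factors Srsf7 and Srsf2 among those that rose (Srsf7, log2 fold change 2.38; Srsf2, log2 fold change 2.31).

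More translation and tRNA modification genes rose than fell as well. Of the initiation and elongation factors 37 rose and 4 fell of 48 tested, with a median log2 fold change of 1.42. Eif4a1, the helicase that opens mRNA leaders, stood at 411 and 451 CPM at rest and 3206 and 2795 CPM with peptide, and Eif4e, the cap-binding protein, at 36.4 and 40.3 CPM at rest and 368 and 320.2 CPM with peptide. Both genes were higher in both libraries with peptide. Eif4a1 rose by 2.80 ± 0.15 log2 units (adjusted p = 9e-09) and Eif4e rose by 3.17 ± 0.17 log2 units (adjusted p = 8.9e-09). The members that fell included brakes on translation. Pdcd4, which inhibits eIF4A, stood at 219.6 and 207 CPM at rest and 9.66 and 10.9 CPM with peptide, and Eef2k, which blocks elongation, at 107 and 95.9 CPM at rest and 5.97 and 4.67 CPM with peptide. Both were low in both libraries with peptide. Pdcd4 fell by 4.37 ± 0.19 log2 units (adjusted p = 1.8e-09) and Eef2k fell by 4.25 ± 0.21 log2 units (adjusted p = 4.3e-09). Eif4ebp2, a repressor of the cap-binding protein, fell by 1.63 ± 0.23 log2 units. Of the tRNA modification genes 27 rose and 2 fell of 40 tested, with a median log2 fold change of 1.41, among them the methyltransferase Nsun2 (log2 fold change 2.81), the pseudouridine synthase Pus7 (log2 fold change 3.70) and the methyltransferase Trmt61a (log2 fold change 3.02).

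More genes for folding and turnover of protein rose than fell. Of the chaperonin, prefoldin and heat shock genes 24 rose and 2 fell of 30 tested, with a median log2 fold change of 1.67. Hspd1, the mitochondrial chaperonin HSP60, stood at 135 and 131 CPM at rest and 1315 and 1235 CPM with peptide, high in both libraries with peptide, and rose by 3.26 ± 0.13 log2 units (adjusted p = 1.2e-09). Hspa8, a constitutive chaperone of the HSP family in the cytosol, rose by 2.51 ± 0.13 log2 units and Hsp90ab1 rose by 2.57 ± 0.22 log2 units, whereas Dnajb1, a target of heat shock factor, fell by 0.97 ± 0.14 log2 units (adjusted p = 5e-05). Of the proteasome genes 36 rose and 0 fell of 39 tested, with a median log2 fold change of 1.07, against 10 risen and 3 fallen with T cell identity scaling, among them Psmd14 (log2 fold change 2.40) and the activator Psme3 (log2 fold change 2.43). Of the endoplasmic reticulum folding genes 29 rose and 3 fell of 37 tested, with a median log2 fold change of 1.10, against 18 risen and 7 fallen with T cell identity scaling, with the ubiquitin ligase Syvn1 (log2 fold change 3.27) and the chaperone Hyou1 (log2 fold change 2.61) among those that rose. Furin, the convertase that cleaves precursor proteins on their way out, stood at 229 and 201 CPM at rest and 2444 and 3183 CPM with peptide, with the libraries with peptide high, and rose by 3.71 ± 0.20 log2 units (adjusted p = 8.6e-09).

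More genes for importing protein into mitochondria rose than fell. Of the import and maintenance genes 33 rose and 0 fell of 39 tested, with a median log2 fold change of 1.05, against 21 risen and 3 fallen with library totals alone and 13 risen and 4 fallen with T cell identity scaling, with Tomm40, the pore of the outer membrane, rising by 2.77 ± 0.18 log2 units (adjusted p = 3.2e-08). Of the mitochondrial ribosome genes 45 rose and 4 fell of 78 tested, with a median log2 fold change of 0.60, against 15 risen and 30 fallen with T cell identity scaling. Of 12 genes encoded by the mitochondrial genome 1 rose and 0 fell, with a median log2 fold change of 0.20, against 0 risen and 1 fallen with library totals alone and 0 risen and 7 fallen with T cell identity scaling. Of the nuclear respiratory chain genes 18 rose and 6 fell of 40 tested, with a median log2 fold change of 0.26, against 3 risen and 17 fallen with library totals alone and 1 risen and 20 fallen with T cell identity scaling, with the ATP synthase gene Atp5b (log2 fold change 1.53) among those that rose. Of the citric acid cycle genes 13 rose and 10 fell of 35 tested, with a median log2 fold change of 0.26, against 6 risen and 15 fallen with library totals alone and 4 risen and 21 fallen with T cell identity scaling.

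Enzymes that make nucleotides and polyamines moved. Of the purine and pyrimidine synthesis genes 20 rose and 3 fell of 29 tested, with a median log2 fold change of 0.86, against 12 risen and 7 fallen with T cell identity scaling. Ctps, which makes CTP and which human lymphocytes need to proliferate, stood at 9.75 and 10.3 CPM at rest and 182 and 194 CPM with peptide, and its paralog Ctps2 stood at 87.7 and 98.3 CPM at rest and 10.9 and 7.82 CPM with peptide. The paralogs crossed over, with Ctps high and Ctps2 low in both libraries with peptide. Ctps rose by 4.23 ± 0.17 log2 units (adjusted p = 1.1e-09) and Ctps2 fell by 3.31 ± 0.23 log2 units (adjusted p = 7.4e-08). Pfas and Umps, enzymes of the purine and pyrimidine pathways, rose (Pfas, log2 fold change 3.77; Umps, log2 fold change 2.48), whereas thymidylate synthase Tyms, an S phase enzyme, fell by 1.65 ± 0.23 log2 units (adjusted p = 3.6e-05). Srm, which makes the polyamine spermidine, stood at 14.8 and 13.6 CPM at rest and 260.4 and 273 CPM with peptide, and Paox, which oxidizes polyamines, at 17.0 and 19.0 CPM at rest and 1.47 and 0.657 CPM with peptide. The synthetic enzyme was high and the oxidase low with peptide, Srm rose by 4.23 ± 0.16 log2 units (adjusted p = 6.4e-10) and Paox fell by 4.07 ± 0.36 log2 units (adjusted p = 5.2e-07). Of the polyamine and methionine list 12 rose and 4 fell of 20 tested, with a median log2 fold change of 0.92, against 5 risen and 7 fallen with T cell identity scaling.

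Of the glycolysis genes 16 rose and 6 fell of 29 tested, with a median log2 fold change of 0.61, against 10 risen and 9 fallen with library totals alone and 6 risen and 10 fallen with T cell identity scaling. The lactate exporter Slc16a3 rose by 2.30 ± 0.15 log2 units (adjusted p = 3.5e-08) and lactate dehydrogenase Ldha rose by 1.46 ± 0.12 log2 units (adjusted p = 2.9e-07), whereas Aldoc fell by 3.73 ± 0.26 log2 units (adjusted p = 6.7e-08) and Pdk1, a mitochondrial kinase that inhibits pyruvate dehydrogenase, fell by 3.41 ± 0.20 log2 units (adjusted p = 1.8e-08). Of the fatty acid genes 7 rose and 15 fell of 28 tested, with a median log2 fold change of -0.96: Fasn, fatty acid synthase, rose by 2.52 ± 0.25 log2 units (adjusted p = 1.4e-06) and Acsl4 rose by 1.95 ± 0.15 log2 units, while the elongase Elovl6 and the β-oxidation enzyme Acadm fell (Elovl6, log2 fold change -3.75; Acadm, log2 fold change -1.73). Of the cholesterol synthesis genes 12 rose and 5 fell of 26 tested, with a median log2 fold change of 0.34, against 11 risen and 10 fallen with library totals alone and 6 risen and 13 fallen with T cell identity scaling. Of the hypoxia response genes 8 rose and 7 fell of 19 tested, with a median log2 fold change of 0.21, against 5 risen and 9 fallen with library totals alone and 5 risen and 11 fallen with T cell identity scaling.

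**Figure D4:**
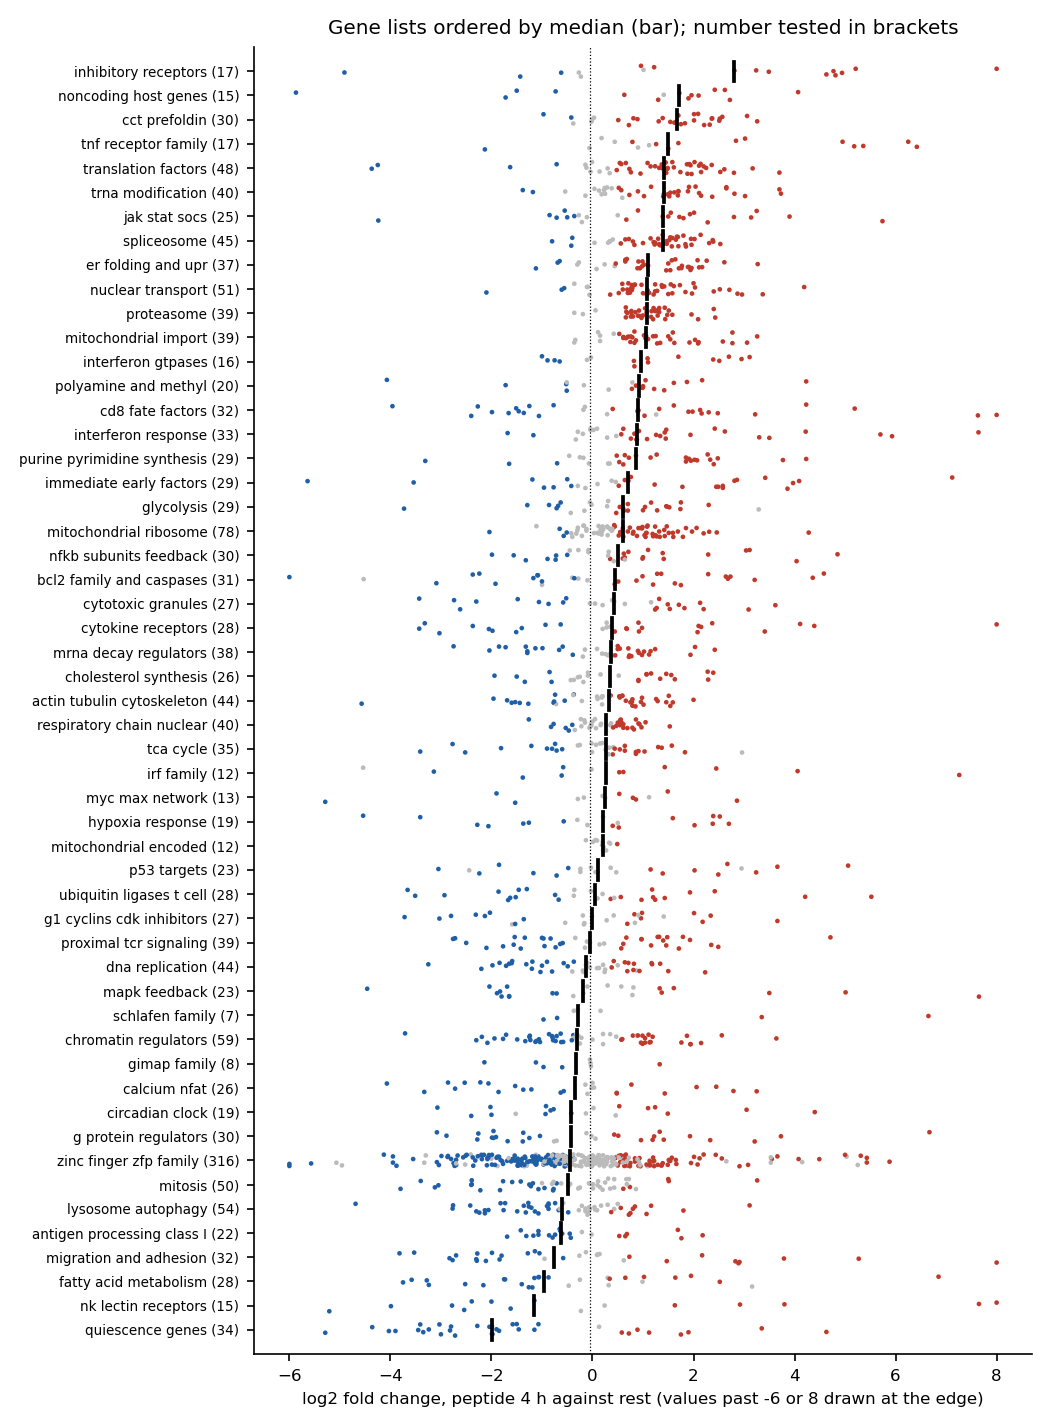
Log2 fold change, peptide 4 h against rest, of each tested member (points, red risen, blue fallen, grey not past the threshold) of the 53 gene lists, ordered by list median (bar), with the median of all genes as a dotted line. The list of inhibitory receptors, which also holds ligands and ectoenzymes, had the highest median (2.81) and quiescence genes the lowest (-1.98).

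More genes of mitosis and DNA replication fell than rose at 4 h, as did more of all genes. Of the DNA replication genes 29.5% rose and 40.9% fell, beside 28.8% and 30.7% of all genes. Their risen share was thus close to that over all genes. Of the mitosis genes 5 rose and 20 fell of 50 tested, with a median log2 fold change of -0.48, against 2 risen and 34 fallen with T cell identity scaling, and of the DNA replication genes 13 rose and 18 fell of 44 tested, with a median log2 fold change of -0.12, against 3 risen and 29 fallen with T cell identity scaling. Mki67, the proliferation antigen Ki-67, stood at 80.6 and 75.8 CPM at rest and 17.6 and 15.8 CPM with peptide, lower in both libraries with peptide. The polymerase gene Pola1 fell by 3.25 ± 0.21 log2 units (adjusted p = 3.7e-08) and the spindle gene Prc1 fell by 3.12 ± 0.21 log2 units (adjusted p = 5.3e-08), whereas Cdc20, an activator of the anaphase-promoting complex, rose by 3.26 ± 0.24 log2 units (adjusted p = 1.1e-07). Genes ahead of S phase were divided. Ccnd2 (cyclin D2) rose by 2.01 ± 0.15 log2 units (adjusted p = 1.6e-07), whereas Ccnd3 (cyclin D3) fell (log2 fold change -2.13). Inhibitors of cyclin-dependent kinases went both ways. Cdkn1b (p27) fell by 3.03 ± 0.15 log2 units (adjusted p = 3.7e-09) and Cdkn2c (p18) fell by 2.31 ± 0.14 log2 units (adjusted p = 2e-08). Cdkn1a (p21), given above, rose (log2 fold change 3.66). Rbl2 (p130), which holds E2F targets silent in quiescent cells, stood at 325 and 309.5 CPM at rest and 27.2 and 20.8 CPM with peptide. Both resting libraries lay far above both libraries with peptide, and Rbl2 fell by 3.72 ± 0.18 log2 units (adjusted p = 4.2e-09). Of the G1 cyclins and inhibitors 8 rose and 8 fell of 27 tested, with a median log2 fold change of -0.01, against 5 risen and 12 fallen with library totals alone and 4 risen and 13 fallen with T cell identity scaling, shares close to those over all genes.

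Quiescence genes gave the lowest median of the lists. Of 34 tested 8 rose and 25 fell, with a median log2 fold change of -1.98. Txnip (ENSMUSG00000038393, chromosome 3, plus strand, 96557957 to 96561883), which binds thioredoxin and limits glucose uptake, stood at 1426 and 1479.7 CPM at rest and 142 and 125 CPM with peptide. Both libraries with peptide lay far below both resting libraries, and Txnip fell by 3.45 ± 0.14 log2 units (adjusted p = 1.2e-09). The members that rose included Slfn2, a Schlafen gene whose loss in mice ends quiescence, which rose by 3.35 ± 0.18 log2 units (adjusted p = 9e-09), the survival gene Bcl2 (log2 fold change 1.75) and the factor Foxp1 (log2 fold change 1.90).

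More lysosome and autophagy genes fell than rose. Ctsd (ENSMUSG00000007891, chromosome 7, minus strand, 142371148 to 142388038), the lysosomal protease cathepsin D, stood at 1368 and 1475 CPM at rest and 57.1 and 53.2 CPM with peptide. Both libraries with peptide lay far below rest and near each other, and Ctsd fell by 4.69 ± 0.14 log2 units (adjusted p = 1.6e-10). The cholesterol carrier Npc2 fell by 2.30 ± 0.13 log2 units (adjusted p = 8.9e-09) and the autophagy kinase Ulk2 fell by 2.76 ± 0.23 log2 units (adjusted p = 3.2e-07). Of the list 10 rose and 27 fell of 54 tested, with a median log2 fold change of -0.61, against 1 risen and 42 fallen with T cell identity scaling.

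The windows before the start sites of Ctsd and Ran are shown because an E-box, which MYC, MAX, MXD and lysosomal regulators such as TFEB can bind, was present in a gene that fell and in one that rose, and that of Txnip as a quiescence gene without one. They lie at chr7:142387828-142388077, minus strand for Ctsd, chr3:96557707-96557956, plus strand for Txnip and chr5:129019906-129020155, plus strand for Ran (RefSeq, GRCm38.p6, capitals as above).
Ctsd: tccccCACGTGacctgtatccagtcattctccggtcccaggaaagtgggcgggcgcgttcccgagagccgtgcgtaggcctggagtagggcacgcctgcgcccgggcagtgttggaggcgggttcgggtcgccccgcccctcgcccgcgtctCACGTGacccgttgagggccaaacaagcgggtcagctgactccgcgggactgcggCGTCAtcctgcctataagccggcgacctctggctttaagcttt
Txnip: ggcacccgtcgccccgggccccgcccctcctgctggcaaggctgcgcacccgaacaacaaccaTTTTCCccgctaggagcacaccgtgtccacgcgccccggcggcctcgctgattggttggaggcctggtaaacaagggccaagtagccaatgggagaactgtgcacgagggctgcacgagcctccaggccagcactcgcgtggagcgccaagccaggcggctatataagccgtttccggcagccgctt
Ran: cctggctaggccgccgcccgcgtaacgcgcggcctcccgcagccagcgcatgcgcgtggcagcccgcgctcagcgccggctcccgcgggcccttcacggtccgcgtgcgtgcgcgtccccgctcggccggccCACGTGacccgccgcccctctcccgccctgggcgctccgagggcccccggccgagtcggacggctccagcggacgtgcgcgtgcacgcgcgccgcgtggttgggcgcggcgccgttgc
Ctsd held 2 E-boxes, at 245 and 98 bases before the start, and 1 short CRE site at 43 bases before it, and Ran 1, at 118 bases before it. Txnip held 1 NFAT core. Across 8107 promoters of 300 bases (250 before the start and 50 after), the E-box stood in 9.99% of all, in 12.2% of 2538 whose genes rose and in 8.90% of 2517 whose genes fell. The short CRE site stood in 37.6% of those that rose and 28.7% of those that fell, beside 32.0% of all. The κB motif was in 0.552% and 0.397%, the AP-1 motif in 5.36% and 4.77%, the full CRE in 3.59% and 2.78%, the interferon element in 3.66% and 2.90% and the NFAT core in 21.6% and 21.3%, in the same order. The short site and the full CRE overlap, and a match of letters is not a bound site.

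More class I antigen presentation genes fell than rose. H2-D1, a class I heavy chain, stood at 8853 and 9230.3 CPM at rest and 2707 and 2881 CPM with peptide, with both libraries with peptide below rest, and fell by 1.69 ± 0.13 log2 units (adjusted p = 1.5e-07). Class I genes have close paralogs, so the split of reads between them is uncertain. The nonclassical gene H2-T22 fell by 1.42 ± 0.13 log2 units (adjusted p = 6.1e-07). B2m, the light chain, fell by 0.45 ± 0.18 log2 units (adjusted p = 0.0488), a call that was lost without either resting library or the second library with peptide, with the median-of-ratios scaling, with DESeq2 and with the replicate block. The proteasome activator genes Psme1 and Psme2 rose (Psme1, log2 fold change 1.69; Psme2, log2 fold change 2.18), and of the class I list 6 rose and 14 fell of 22 tested, with a median log2 fold change of -0.62.

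More interferon-induced genes rose than fell. Of the type I interferon response list 22 rose and 2 fell of 33 tested, with a median log2 fold change of 0.88, against 11 risen and 10 fallen with T cell identity scaling. Oasl1, an inhibitor of Irf7 translation in mice, stood at 0.168 and 0.343 CPM at rest and 56.0 and 45.7 CPM with peptide, with rest near 0. Some members went the other way: Samhd1, which degrades deoxynucleotides, fell by 1.68 ± 0.16 log2 units (adjusted p = 1.1e-06) and the antiviral GTPase Mx1 fell by 1.17 ± 0.14 log2 units (adjusted p = 1.2e-05). Of the guanylate-binding and immunity-related GTPases 10 rose and 4 fell of 16 tested, with a median log2 fold change of 0.96, against 6 risen and 6 fallen with T cell identity scaling: Gbp5 rose by 2.51 ± 0.18 log2 units and Gbp3 rose by 2.39 ± 0.18 log2 units, while Gbp4, which has close paralogs, fell by 0.75 ± 0.12 log2 units. The B cell and myeloid markers given above moved the same way, and their part in these rises was not tested.

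Cytoskeleton, chromatin and clock genes each moved in both directions. Of the actin and tubulin genes 21 rose and 12 fell of 44 tested, with a median log2 fold change of 0.33, against 12 risen and 18 fallen with library totals alone and 5 risen and 23 fallen with T cell identity scaling. Myo1f, a myosin of leukocytes, stood at 333 and 305 CPM at rest and 10.2 and 16.7 CPM with peptide, low in both libraries with peptide, and fell by 4.57 ± 0.26 log2 units (adjusted p = 1.2e-08), whereas Vasp, which speeds actin growth, rose by 2.00 ± 0.20 log2 units (adjusted p = 1.6e-06). Of the chromatin regulators 20 rose and 27 fell of 59 tested, with a median log2 fold change of -0.31. Kdm6b, a demethylase of the silencing mark at histone H3 lysine 27, stood at 108 and 88.8 CPM at rest and 968 and 1476 CPM with peptide, high with peptide, and the histone deacetylase Hdac5 at 73.3 and 77.5 CPM at rest and 5.38 and 6.14 CPM with peptide, low with peptide. Kdm6b rose by 3.64 ± 0.22 log2 units (adjusted p = 2.3e-08), the DNA demethylase Tet2 rose by 2.56 ± 0.15 log2 units and Hdac5 fell by 3.71 ± 0.19 log2 units (adjusted p = 5e-09). Of the clock genes 6 rose and 9 fell of 19 tested, with a median log2 fold change of -0.42, with Per1 (log2 fold change -2.02) and Nr1d1 (log2 fold change -3.07) fallen and Cry1 (log2 fold change 1.49) risen.

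Regulators of RNA also went both ways. Zfp36l2, which marks AU-rich messages for decay, fell by 2.75 ± 0.19 log2 units (adjusted p = 5.7e-08), and of the decay regulators 18 rose and 12 fell of 38 tested, with a median log2 fold change of 0.37, against 8 risen and 14 fallen with library totals alone and 3 risen and 19 fallen with T cell identity scaling. Of 316 tested zinc finger genes with Zfp names 60 rose and 115 fell, with a median log2 fold change of -0.44, against 18 risen and 200 fallen with T cell identity scaling. Mir17hg, the host transcript of the miR-17 to miR-92 cluster, stood at 11 and 13.4 CPM at rest and 233 and 175 CPM with peptide, several-fold above rest in both libraries with peptide, and rose by 4.07 ± 0.21 log2 units (adjusted p = 5.6e-09). The nuclear noncoding RNAs Malat1 and Neat1 fell (Malat1, log2 fold change -1.72; Neat1, log2 fold change -1.5). Of the noncoding host genes 10 rose and 4 fell of 15 tested, with a median log2 fold change of 1.72. Of the ubiquitin ligase list 11 rose and 11 fell of 28 tested, with a median log2 fold change of 0.04, against 8 risen and 14 fallen with library totals alone and 5 risen and 17 fallen with T cell identity scaling, of the Gimap family of lymphocyte GTPases 1 rose and 4 fell of 8 tested, with a median log2 fold change of -0.33, against 1 risen and 7 fallen with library totals alone and 1 risen and 7 fallen with T cell identity scaling, and of the Schlafen family 2 rose and 2 fell of 7 tested, with a median log2 fold change of -0.29, against 2 risen and 4 fallen with library totals alone and 2 risen and 5 fallen with T cell identity scaling.

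**Figure D5:**
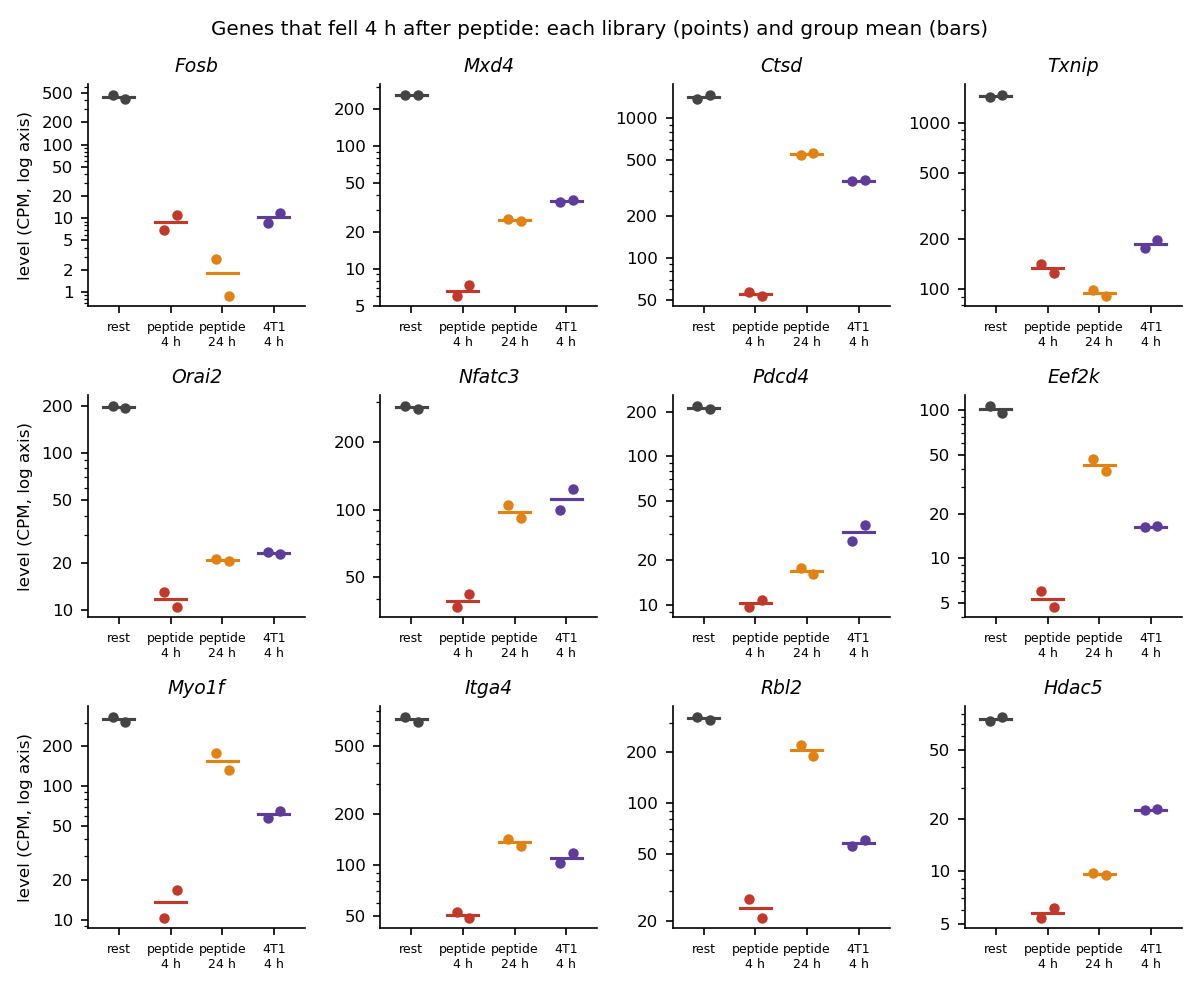
Level (CPM, log axis) of 12 genes that fell with peptide at 4 h, in each library at rest, with peptide for 4 h or 24 h, and in 4T1 co-culture for 4 h (points), with group means (bars, n = 2). Ctsd and Rbl2 stood at 55.2 and 24.0 CPM on average with peptide for 4 h and at 552 and 206 CPM at 24 h.

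The 15 highest fold changes belonged without exception to genes without a count at rest, and 6 of them were on the B cell, plasma cell or myeloid lists. These lists are short, and the rest, Ngp, H2-Ob and Faim3 among them, were not assigned to a cell type. S100a9, a neutrophil protein, was at least 238-fold higher, against a floor of 3 counts over the resting group that covers counting error only. Among genes with at least 10 CPM at rest, a ranking added after the data were seen, Irf8, Nr4a3, Rgs16, Stat5a and Zbtb32 came first. At the other end 6 of the 15 lowest had no count with peptide. Itga2, the collagen receptor chain, was at least 52.7-fold lower and Art2b, an ADP-ribosyltransferase of T cells, at least 62.8-fold lower.

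Of the 3 states rest, 4 h and 24 h, the 4 h libraries held the highest levels of some genes and the lowest of others. Between 24 h and 4 h of peptide, a comparison that uses the same 4 h libraries as the one above, 52.9% of all genes differed. Nr4a3 stood at 9.48 and 11.4 CPM at 24 h, below rest in both libraries (log2 fold change -7.87 ± 0.20, adjusted p = 3.3e-11, 24 h against 4 h). Rgs16 stood at 22.6 and 20.7 CPM at 24 h (log2 fold change -7.09 ± 0.21, adjusted p = 2e-10). Il2ra kept a level of 2628 and 2133 CPM (log2 fold change -0.86 ± 0.15, adjusted p = 0.00034), which with T cell identity scaling became a rise of 0.87. Hspd1 stood at 1473 and 1303 CPM, which did not differ past the threshold (log2 fold change 0.12 ± 0.12, adjusted p = 0.427) but was higher with library totals alone (0.69) and with T cell identity scaling (1.87). Mki67, low at 4 h, stood at 463 and 458 CPM (log2 fold change 4.78 ± 0.16, adjusted p = 3.2e-10), and Ctsd stood at 545 and 559 CPM (log2 fold change 3.32 ± 0.13, adjusted p = 1.1e-09).

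After 4 h of co-culture with 4T1 cells Nr4a3, Rgs16 and Il2ra were lower than after 4 h of peptide, in libraries that may hold RNA of 4T1 cells. Between these groups 61.4% of all genes differed. Nr4a3 stood at 79.8 and 97.2 CPM in co-culture, above both resting libraries and below both libraries with peptide (log2 fold change -4.78 ± 0.17, adjusted p = 4.1e-10 against peptide). Rgs16 stood at 394 and 411 CPM (log2 fold change -2.87 ± 0.17, adjusted p = 1.8e-08) and Il2ra at 616 and 754 CPM (log2 fold change -2.66 ± 0.16, adjusted p = 1.8e-08). The summed T cell identity markers stood at 14948 to 15405 CPM with peptide and 3177 to 3334 CPM in co-culture. With libraries set equal on these genes the log2 fold changes shrank to -2.63 for Nr4a3, -0.73 for Rgs16 and -0.51 for Il2ra, each still past the threshold.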

How the data were processed

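RNA-seq libraries of mouse CTLs were deposited by the authors as a table of read counts per gene for 10 libraries, with gene identifiers, positions and types on mm10. No aligner or counter is named in the sources read here; the submitters' processing notes name DESeq2 1.36. Per the labels' protocols the libraries were poly(A)-selected and stranded, and whether counting used strand is not stated, so reads of overlapping genes may be misassigned.

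From the counts, 14729 of 35275 genes passed edgeR's filterByExpr (12534 had no count), and all 10 libraries were fitted together with a mean per group (edgeR 4.0.16, limma 3.58.1, R 4.3.3, TMM scaling, quasi-likelihood test, Benjamini-Hochberg adjustment, threshold 0.05). A test against a 2-fold change (glmTreat) used the same fit. The spread rests on 5 residual degrees of freedom shared by the groups, and the common biological coefficient of variation was 0.159. The SE is the log2 fold change divided by the square root of F. The fit was tested on simulated data. Libraries of a group differed by more than sampling noise (chi-square per gene 6.94 at rest and 28.3 with peptide), so all were kept apart. DESeq2 1.42.0, 3 other scalings, no low-count filter, the 4 libraries alone, a replicate block and leaving out each library were tried as alternatives.

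The members and gene lists were chosen with earlier results of these data known, so their directions are no independent evidence. Genes were named by rule: the 15 highest and 15 lowest fold changes with at least 5 CPM in the higher group and no overlap between groups, leaving out unnamed gene models and receptor segments, the 10 largest gains and losses in CPM, up to 3 members of each list in each direction by p-value, and the cell type markers. Egr2, Jun, Junb, Nfatc1, Stim1, Mnt, Mxd1, Bcl3, Bmf, Bcl2l11, Bak1, Bax and Ccnd3 were chosen after their values were seen. So were the genes whose promoters are shown and the genes drawn in the plots. Floors and intervals cover counting error only. Python 3.11.15 and matplotlib 3.10.9 made the tables of list counts and the plots. Some genes are not reported here.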

Additional observations from a re-analysis of the deposited data

Results flagged for a closer look

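Each gene below changed between rest and 4 h of peptide. It then differed again in a comparison that shares the 4 h libraries, with an adjusted p under the threshold in edgeR's test. Only a short list of chosen genes was checked in this way. Of all genes 52.9% differed between 4 h and 24 h of peptide, and 61.4% between 4 h of co-culture and 4 h of peptide. From 4 h to 24 h of peptide the log2 fold change was -7.87 for Nr4a3, -7.09 for Rgs16, -5.34 for Rgs1 and -4.36 for Stat5a. It was -3.84 for Havcr2 (TIM-3, an inhibitory receptor), -3.75 for Irf8 and -2.29 for Fosb. Il2ra differed by -0.86 and the granzyme gene Gzmb by 0.66. Mki67, Ctsd and Rbl2, which were low at 4 h, differed by 4.78, 3.32 and 3.10. With T cell identity scaling the values were -6.11 for Nr4a3, -5.35 for Rgs16, -3.56 for Rgs1, -2.64 for Stat5a, -2.07 for Havcr2, -2.0 for Irf8, 2.41 for Gzmb, 6.54 for Mki67, 5.08 for Ctsd and 4.85 for Rbl2, each still past the threshold. In CPM all 12 kept both 24 h libraries on one side of both 4 h libraries. They had been picked for passing this test, and the same share over all genes was not counted.

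Rgs1 stood at 579 and 551 CPM at rest, 5963 and 4496 CPM at 4 h and 120.4 and 138 CPM at 24 h, so both 24 h libraries lay below both resting ones. Fosb stood at 7.0 and 11 CPM at 4 h and 2.77 and 0.874 CPM at 24 h, still far below rest; with T cell identity scaling the difference between 4 h and 24 h was -0.60 and lost its call. That of Il2ra lost its call with library totals alone (-0.29) and turned to 0.87 with T cell identity scaling.

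Between 4 h of co-culture and 4 h of peptide the log2 fold change was -4.78 for Nr4a3, -2.87 for Rgs16, -2.78 for Havcr2 and -2.66 for Il2ra. Havcr2 stood at 206 and 228 CPM in co-culture, 1643 and 1327 CPM with peptide and 45.7 and 51.3 CPM at rest. With T cell identity scaling these shrank to -2.63, -0.73, -0.62 and -0.51 in the same order, each still past the threshold. RNA of 4T1 cells in the co-culture libraries takes a share of their counts, and its part in these differences was not tested.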

How the results depend on the processing

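The single genes compared moved little, but most were named for small p-values or large changes, so their calls were unlikely to move. Over all genes, 1923 of the 4244 that rose kept that call with T cell identity scaling and 2815 with library totals alone. Of 2172 alternative values over 199 comparisons of named genes, 2128 kept their direction and side of the threshold, 21 lost the call, 18 gained one and 5 turned. Among those that turned were Junb against rest (-0.40, adjusted p = 0.00706, with library totals alone and -0.77, adjusted p = 0.00289, with T cell identity scaling) and Il2ra at 24 h against 4 h (0.87, adjusted p = 6.0e-04, with T cell identity scaling). With T cell identity scaling Bax also turned to -0.37 (adjusted p = 0.111) and Mnt to -0.05 (adjusted p = 0.878). B2m lost its call in 6 of its alternatives (adjusted p 0.0705 to 0.324). The scaling moved the counts, and the cause was not tested. With library totals alone 2815 genes were higher against rest, 1332 of them or others over 2-fold; at 24 h against 4 h 6396 were higher and 1861 lower, and in co-culture against peptide 1919 were lower. With T cell identity scaling 1923 were higher and 7399 lower against rest, 966 and 4656 over 2-fold; at 24 h against 4 h 10817 were higher and 399 lower, and in co-culture against peptide 12347 were higher and 406 lower. Under that scaling 83 genes were called in the opposite direction. List counts moved by over 1.5 times in 132 of 1166 alternative values.

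DESeq2 called 4459 genes higher and 4310 lower against rest, no low-count filter gave 4283 and 4693, and the 4 libraries alone gave 4215 and 4392. Leaving out 1 library gave 3535 to 3867 higher and 3797 to 4038 lower, and 1714 to 1852 and 1977 to 2188 over 2-fold; the lone library was then assumed to vary like the other groups. Between rest and each other group, libraries with the same replicate number did not deviate together (correlations from -0.0369 to 0.0364). The activated groups were not compared with each other in this way, so these values do not settle whether the numbers pair libraries. With the replicate block 4079 genes were higher and 4348 lower.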

Other observations

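The receptor segments show how uniform the resting line was. Trav8n-2, a variable segment of the T cell receptor α chain, had 2660 of 2670 counts on such segments in the first resting library and 2166 of 2182 in the second. With peptide at 4 h it had 438 of 453 and 498 of 538, so other segments took 3.31% (95% Wilson interval 2.02% to 5.39%) and 7.43% (5.51% to 9.97%). Its level was 149 and 149 CPM at rest and 32.3 and 36.4 CPM with peptide, and both libraries with peptide lay below both resting ones.

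Among β chain segments Trbv31 and Trbv2 held every count at rest, 3186 and 2785, so the others were at 0, which allows a share of up to 0.0942% and 0.108%. With peptide at 4 h the others took 7.92% (131 of 1653 counts) and 7.11% (103 of 1448), and at 24 h 0.653% and 1.22%. In the co-culture libraries at 4 h the other β segments had 1 of 1044 and 0 of 1492 counts. Intervals and limits cover counting error only.

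Immunoglobulin κ variable segments had 5 and 0 counts in the resting libraries, 875 and 698 over 72 and 67 segments with peptide at 4 h, and 377 and 1023 at 24 h. In co-culture they had 1 and 0 counts at 4 h and 5 and 0 at 24 h, where the B cell markers summed to 34.1 and 39.0 CPM and to 512 and 404 CPM. Heavy chain variable segments did not separate the groups, with 150 and 79 counts at rest (8.40 and 5.43 CPM) and 103 and 91 with peptide at 4 h (7.59 and 6.65 CPM).

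T cell receptor and coreceptor genes did not move alike. Cd8a stood at 148 and 143 CPM at rest and 1294 and 1413 CPM with peptide at 4 h, whereas Cd3d stood at 510.0 and 561 CPM at rest and 283 and 219 CPM with peptide, with no overlap in either gene. Cd6, without a count at rest, stood at 3.76 and 5.40 CPM with peptide. B cells and some dendritic cells carry CD5 or CD8α. T cells with other receptors, whose β segments took 7.92% and 7.11% of such counts with peptide, can also carry these genes' proteins. The part of all these cells in the rises was not tested.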
